A study of Mus musculus with 6 samples.

Results

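The genes described here were the SOCS family of cytokine feedback inhibitors, namely Cish and Socs1 to Socs7, and the serine/threonine kinases Pim1 and Pim3. They were found by matching the Ensembl identifiers of the deposited count matrix to their mouse symbols, which gave 10 genes of 55401 rows. RNA-seq had been performed on CD11b-selected brain cells from 6-week-old untreated mice, in 3 libraries from MRL/lpr mice and 3 from MRL/mpj mice. The MRL/lpr strain is mutated in Fas (the lpr allele), a death receptor whose loss leads to a lupus-like autoimmune disease, on the MRL background. MRL/mpj mice have the same background without the mutation and served as controls. Brain cells were released by enzymatic digestion, enriched by density in Percoll and captured with magnetic beads for CD11b, an integrin that microglia share with monocytes, neutrophils and other myeloid cells. The labels name the libraries as microglia, and 3 mice per strain were sequenced. Whether each library came from a single mouse is not stated in the sources used here, so p-values measure only the spread between these samples, which may be technical.

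Cytokines such as IL-6, oncostatin M, interferons, IL-2 and GM-CSF bind receptors that carry Janus kinases (JAKs), which phosphorylate STAT transcription factors. STATs then switch on, among many other genes, the SOCS genes, whose products block the kinase or the receptor or mark them for ubiquitin-dependent degradation, so that each signal limits itself. Pim kinases are also transcribed in response to STAT3 and STAT5, are active as soon as they are made, and promote survival, translation and cell cycle entry. The mRNAs of CIS, SOCS1, SOCS3 and Pim1 are therefore often read as a trace of recent cytokine signalling, whereas SOCS4 to SOCS7 are less dependent on cytokines.

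All 10 genes passed the filter on low counts, each of them in both strains. At an adjusted p under 0.05 (quasi-likelihood test in edgeR, Benjamini-Hochberg adjusted over all 19554 genes tested), 4 of the 10 genes were higher in MRL/lpr libraries (Pim1, Cish, Pim3 and Socs3) and 0 were lower. Of all genes tested, 11.1% were called higher and 9.06% lower. The median log2 fold change (log2FC, MRL/lpr over MRL/mpj) was 0.36 for the 10 genes and -0.01 for all genes tested. Only Pim1 also reached an absolute log2FC of 1, a limit that 4.67% of all genes passed as higher and 3.66% as lower. In 6 of the 10 genes every MRL/lpr library lay above every MRL/mpj library in CPM (counts scaled to sequencing depth with edgeR's TMM factors) and in 1 gene every MRL/lpr library lay below, compared with 19.6% and 19.4% of all genes. The same 4 genes were called in 15 of 17 alternative analyses, and both fits on deposited FPKM (fragment counts scaled to gene length and depth) called 3, without Socs3.

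Before the single genes, some properties of the libraries bear on each of them. Total counts ran from 45481609 to 49846634, and a single transcript, CT010467.1, made up 6.38% of MRL/lpr replicate 3 and at most 0.457% of any other library. Mitochondrial genes took 3.06% to 3.49% of counts in MRL/lpr libraries and 5.84% to 6.38% in MRL/mpj libraries. Xist, which marks cells with an inactive X chromosome, had 8886 to 11319 counts in MRL/lpr libraries and 27 to 38 in MRL/mpj libraries, while the study's methods describe female mice, so the sex of the animals cannot be told apart from the strain. Fas had 461, 282 and 298 counts in MRL/lpr libraries and 426, 432 and 362 in MRL/mpj libraries, and these ranges overlapped. Markers of microglia were high in all libraries, with summed levels of 27853 to 30686 CPM in MRL/lpr and 31945 to 32919 CPM in MRL/mpj. Of the 16 microglia markers, 1 was higher and 4 were lower in MRL/lpr, and none was at 0. Csf1r was the largest part of the sums (10448 CPM in MRL/lpr and 9949 CPM in MRL/mpj, not called). Fcrls fell most of the 16 (log2FC -1.76, adjusted p = 1.61e-07 from edgeR). Cx3cr1 had 132706 counts in MRL/lpr replicate 2, but 10645 and 10334 in replicates 1 and 3. Csf1r, Fcrls and Cx3cr1 were named after their values were seen.

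**Figure D1:**
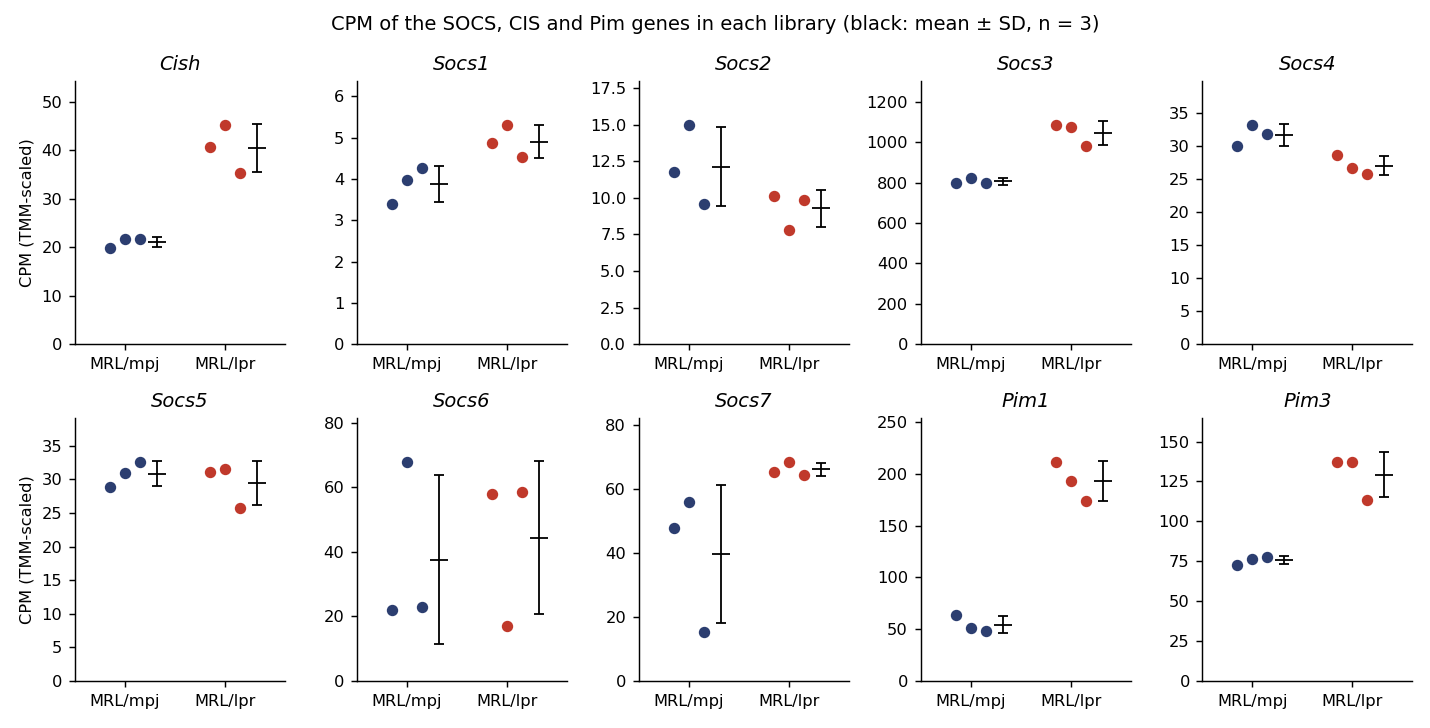
CPM (TMM-scaled, axes from 0) of the 10 genes in each of the 3 MRL/mpj (blue) and 3 MRL/lpr (red) libraries, with the mean and SD of each strain in black. The strains do not overlap for Pim1, Cish, Pim3, Socs3, Socs1 and Socs7 (MRL/lpr higher) or for Socs4 (MRL/lpr lower), and Socs6 in both strains and Socs7 in MRL/mpj scatter over a more than 3-fold range.

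Pim1 showed the strongest change of the 10 genes. The kinase phosphorylates the pro-apoptotic protein BAD, the cell cycle inhibitor p21 and other substrates. Pim1 (ENSMUSG00000024014, GRCm38 chr17:29490753-29496112, plus strand) had 9959, 9107 and 7244 counts in MRL/lpr replicates 1 to 3 and 3268, 2565 and 2510 counts in MRL/mpj replicates 1 to 3. The lowest MRL/lpr library thus held more than 2-fold the counts of the highest MRL/mpj library. Pim1 was at 193 ± 19.3 CPM in MRL/lpr and 54.4 ± 8.12 CPM in MRL/mpj (SD, n = 3 each), a 3.55-fold difference with a log2FC of 1.83 (SE 0.12, 95% interval 1.56 to 2.09, adjusted p = 7.81e-06 from edgeR). Only 3.19% of the genes tested had a larger log2FC. An annotated antisense transcript, Gm26885 (ENSMUSG00000097125), overlaps exons of Pim1 and moved the same way, with 557, 632 and 599 counts in MRL/lpr and 160, 180 and 180 counts in MRL/mpj (log2FC 1.96, SE 0.16, adjusted p = 3.02e-05 from edgeR). The sources used here do not state whether counting used the strand, so reads of Pim1 and Gm26885 may not be separated.

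Pim3, the close relative of Pim1 with overlapping substrates, rose less. Pim3 (ENSMUSG00000035828, chr15:88862186-88865726, plus strand) had 6463, 6467 and 4728 counts in MRL/lpr libraries and 3748, 3805 and 4054 counts in MRL/mpj libraries. The groups did not overlap, although MRL/lpr replicate 3 was the lowest of its strain. The levels were 129 ± 14.0 CPM and 75.7 ± 2.52 CPM (SD, n = 3 each), a 1.71-fold difference (log2FC 0.77, SE 0.09, 95% interval 0.57 to 0.98, adjusted p = 0.0003 from edgeR). The intervals of Pim1 and Pim3 did not overlap. Within each library the ratio of Pim1 to Pim3 counts, which does not depend on scaling between libraries, was 0.62, 0.49 and 0.62 on the log2 scale in MRL/lpr and -0.20, -0.57 and -0.69 in MRL/mpj. Pim1 therefore outnumbered Pim3 in each MRL/lpr library and Pim3 outnumbered Pim1 in each MRL/mpj library, in counts that are not corrected for length. The difference of 1.06 between strains had p = 0.1 in an exact two-sided permutation test, the smallest p that 3 against 3 libraries can give, and 0.15 after Benjamini-Hochberg adjustment over the 3 ratios computed. Pim2, the X-linked member of the kinase family, was not called (352, 443 and 347 counts in MRL/lpr, 546, 653 and 530 in MRL/mpj, log2FC -0.43, adjusted p = 0.0974 from edgeR).

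Cish encodes CIS, the founding SOCS protein, which is induced by STAT5 and restrains receptors that signal through it. Cish (ENSMUSG00000032578, chr9:107296026-107302784, plus strand) had 1914, 2128 and 1475 counts in MRL/lpr libraries and 1018, 1080 and 1130 counts in MRL/mpj libraries. Each MRL/lpr library was above each MRL/mpj library. The means were 40.4 ± 4.96 CPM and 21.04 ± 1.07 CPM (SD, n = 3 each), a 1.92-fold difference (log2FC 0.94, SE 0.11, 95% interval 0.69 to 1.19, adjusted p = 0.000305 from edgeR). Its annotation overlaps Gm17040 and Gm17041 on the opposite strand, and both had 0 counts in all 6 libraries.

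Socs2, like Cish a target of STAT5, acts on the growth hormone receptor and forms a pair with Cish by sequence. Socs2 (ENSMUSG00000020027, chr10:95385362-95417180, minus strand) had 477, 368 and 413 counts in MRL/lpr libraries and 606, 749 and 500 counts in MRL/mpj libraries. It did not pass the test (log2FC -0.39, SE 0.19, 95% interval -0.81 to 0.04, adjusted p = 0.203 from edgeR), and the CPM of the strains overlapped. The log2 ratio of Cish to Socs2 counts within a library ran from 1.84 to 2.53 in MRL/lpr and from 0.53 to 1.18 in MRL/mpj. The ratio was thus higher in each MRL/lpr library, by 1.31 on average (exact permutation p = 0.1, two-sided, adjusted 0.15).

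Socs3, the feedback inhibitor induced by STAT3 that binds gp130 and blocks JAKs, was by far the most abundant of the family. Socs3 (ENSMUSG00000053113, chr11:117966079-117970047, minus strand) had 51046, 50592 and 40950 counts in MRL/lpr libraries and 40915, 41211 and 41513 counts in MRL/mpj libraries. The raw count of MRL/lpr replicate 3 lay within the MRL/mpj range, and after scaling the values were 1086, 1075 and 980 CPM in MRL/lpr and 796, 824 and 798 CPM in MRL/mpj. The strains then did not overlap. The mean of 1047 ± 58.2 CPM against 806 ± 15.8 CPM (SD, n = 3 each) was a 1.30-fold difference (log2FC 0.38, SE 0.06, 95% interval 0.24 to 0.51, adjusted p = 0.00201 from edgeR). The call was kept with scaling by library size alone and lost in the fits on FPKM. With limma on log2(FPKM + 0.1), where the median of all genes moved to -0.12, the log2FC of Socs3 was 0.25 and the adjusted p 0.0685.

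Socs1, which inhibits JAKs directly and is induced by interferons, was present at low levels. Socs1 (ENSMUSG00000038037, chr16:10782240-10785536, minus strand) had 229, 250 and 189 counts in MRL/lpr libraries and 175, 199 and 222 counts in MRL/mpj libraries. In CPM the strains did not overlap (4.87, 5.31 and 4.52 against 3.41, 3.98 and 4.27), yet the difference did not pass the test (log2FC 0.34, SE 0.20, 95% interval -0.11 to 0.78, adjusted p = 0.288 from edgeR). The interval includes the log2FC of Socs3. The log2 ratio of Socs3 to Socs1 counts was 7.80, 7.66 and 7.76 in MRL/lpr and 7.87, 7.69 and 7.55 in MRL/mpj, with overlapping strains and a mean difference of 0.04 (exact permutation p = 0.8, two-sided).

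The sequences before the transcription starts of Socs3, Socs1 and Pim1 are shown because these genes are known to be induced by STATs or interferon regulatory factors. Pim1 changed most of the 10 genes, and the log2FCs of Socs3 and Socs1 were 0.38 and 0.34. RefSeq promoter windows on GRCm38.p6 were found for 6 of the 10 genes (Cish, Socs1, Socs3, Socs4, Pim1 and Pim3), and only bases that lie upstream of the start and in no GENCODE M21 exon of the gene are printed. Both strands of each window of 250 bases before the start were searched for a STAT motif (TTC and GAA with 3 or 4 bases between them), the AP-1 motif TGANTCA, the CRE motif TGACGTCA and an interferon regulatory factor motif (GAAA, any 2 bases, GAAA), and matches are in capitals. The Socs3 stretch (chr11:117969452-117969616, minus strand, positions -250 to -86 from the RefSeq start) lies in an intron of the longest annotated transcript. The Socs1 stretch is chr16:10785537-10785786 (minus strand, positions -250 to -1), and the Pim1 stretch is chr17:29490535-29490752 (plus strand, positions -250 to -33).
Socs3: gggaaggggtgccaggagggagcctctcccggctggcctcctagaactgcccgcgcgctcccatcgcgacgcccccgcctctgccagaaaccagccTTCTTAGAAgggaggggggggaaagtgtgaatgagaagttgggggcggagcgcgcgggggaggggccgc
Socs1: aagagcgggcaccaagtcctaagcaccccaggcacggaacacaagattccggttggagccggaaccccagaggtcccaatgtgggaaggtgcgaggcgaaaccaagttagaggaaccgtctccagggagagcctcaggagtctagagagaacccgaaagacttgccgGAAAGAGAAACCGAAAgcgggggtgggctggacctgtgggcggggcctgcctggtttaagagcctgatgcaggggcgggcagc
Pim1: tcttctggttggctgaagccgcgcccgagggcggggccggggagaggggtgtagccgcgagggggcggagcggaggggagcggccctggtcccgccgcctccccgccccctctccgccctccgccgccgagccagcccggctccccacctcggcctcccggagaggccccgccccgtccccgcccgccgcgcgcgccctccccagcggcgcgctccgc
Socs3 held a STAT match with 3 bases between, TTCTTAGAA at -154 to -146, and 7.02% of 32851 RefSeq windows of 250 bases held a match of that spacing. Socs1 held a pair of interferon regulatory factor matches, GAAAGAGAAA at -83 to -74 and GAAACCGAAA at -77 to -68, which overlap each other, and 2.98% of all windows held at least 1 such match. No window of Cish, Socs4, Pim1 or Pim3 held any of these motifs, counting each STAT spacing. The RefSeq start of Cish lies 633 bases downstream of the GENCODE gene start, and its window begins inside an annotated exon. Sequence before the GENCODE start of Cish was therefore not searched. The other STAT spacing was in 5.85% of all windows, the AP-1 motif in 6.75% and the CRE motif in 1.55%. The GC content was 82.4% in the Pim1 window shown, 71.6% in that of Socs3 and 61.2% in that of Socs1. RefSeq has another Pim1 window further downstream, not shown, with a GC content of 48%. The matches are descriptions of letters, and no binding was measured.

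Socs4 to Socs7, which have long N-terminal regions and act on receptor tyrosine kinase and other signalling, showed no called change. Socs4 (ENSMUSG00000048379, chr14:47276931-47296102, plus strand) had 1349, 1255 and 1080 counts in MRL/lpr libraries and 1540, 1661 and 1660 counts in MRL/mpj libraries. It was the 1 gene of the 10 with all MRL/lpr libraries below all MRL/mpj libraries in CPM (log2FC -0.23, SE 0.09, 95% interval -0.43 to -0.02, adjusted p = 0.120 from edgeR). It was called lower only with scaling by library size alone (log2FC -0.35, adjusted p = 0.0344 from edgeR), where the median of all genes moved to -0.13. Socs5 (ENSMUSG00000037104, chr17:87107679-87137839, plus strand) had 1462, 1485 and 1074 counts in MRL/lpr libraries and 1484, 1547 and 1698 counts in MRL/mpj libraries. Its interval was narrow and spanned 0 (log2FC -0.07, SE 0.11, 95% interval -0.31 to 0.18, adjusted p = 0.743 from edgeR).

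Socs6 and Socs7 differed from the other members by their spread within a strain. Socs6 (ENSMUSG00000056153, chromosome 18) had 2718, 798 and 2443 counts in MRL/lpr libraries and 1131, 3400 and 1188 counts in MRL/mpj libraries. The highest library exceeded the lowest of the same strain 3.45-fold in MRL/lpr and 3.09-fold in MRL/mpj, in TMM-scaled CPM. The strains overlapped and the interval allowed changes in either direction (log2FC 0.24, SE 0.73, 95% interval -1.70 to 2.18, adjusted p = 0.874 from edgeR). Socs7 (ENSMUSG00000038485, chr11:97362551-97398542, plus strand) had 3066, 3225 and 2693 counts in MRL/lpr libraries and 2454, 2794 and 799 counts in MRL/mpj libraries, so that MRL/mpj replicate 3 stood 3.64-fold below replicate 2 in CPM. Although the strains did not overlap, the difference did not pass the test (log2FC 0.74, SE 0.49, 95% interval -0.55 to 2.02, adjusted p = 0.396 from edgeR). Without MRL/mpj replicate 3 the log2FC of Socs7 was 0.35 and the adjusted p 0.0604. Of 14922 genes with a mean of at least 1 CPM, 10% in MRL/lpr and 7.86% in MRL/mpj had a spread over 2-fold within the strain, and the other 8 members did not exceed 1.56-fold.

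**Figure D2:**
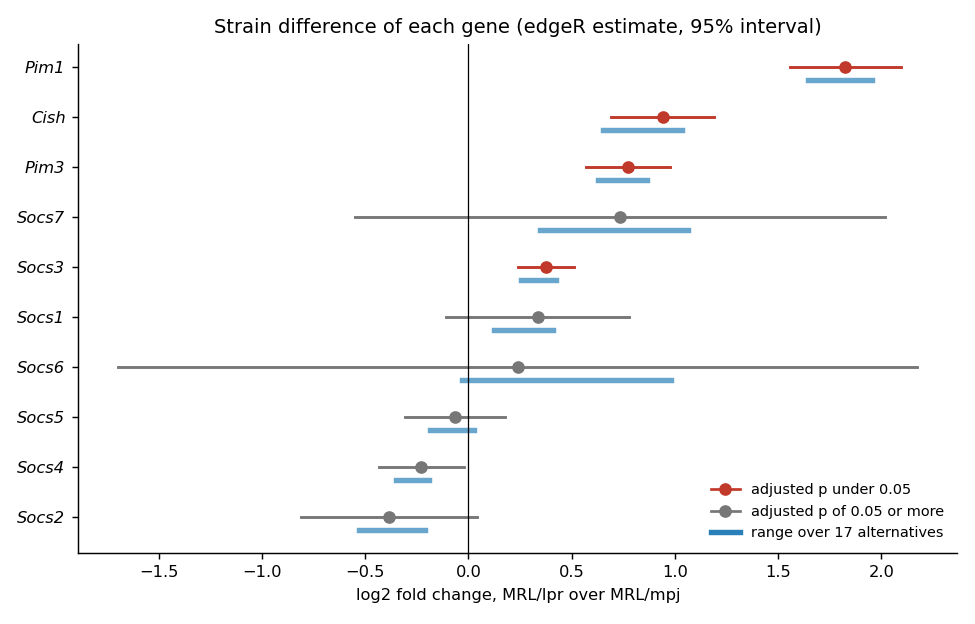
Log2 fold change of each gene (MRL/lpr over MRL/mpj) with its 95% interval from edgeR, red where the adjusted p is under 0.05, and below it in light blue the range of the estimate over 17 alternative analyses. The range of Pim1 is 1.65 to 1.95, that of Cish 0.65 to 1.03 and that of Pim3 0.63 to 0.87, while the ranges of Socs5 and Socs6 span 0.

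Levels were compared between genes on the deposited FPKM scale, which accounts for gene length. In MRL/lpr libraries the order of mean FPKM was Socs3 (310), Pim1 (49.2), Pim3 (45.7), Socs7 (7.66), Cish (5.39), Socs5 (3.93), Socs4 (3.37), Socs6 (3.33), Socs1 (1.44) and Socs2 (0.827). The neighbours Pim1 and Pim3, Socs5 and Socs4, Socs4 and Socs6, and Socs6 and Socs1 overlapped between libraries in this order. Within each MRL/lpr library, however, Pim1 was above Pim3 (54.92 against 49.38, 50.12 against 49.31 and 42.5 against 38.43 FPKM in replicates 1 to 3). In MRL/mpj libraries Pim3 (29.0 FPKM) preceded Pim1 (15.04 FPKM) with no overlap, and Cish (3.05 FPKM) came eighth of 10 and overlapped Socs6. Socs3 held 90.6% to 93.4% of the summed FPKM of the 8 SOCS family genes in each library, with overlapping strains. Only 0.568% of the genes tested had a higher mean FPKM than Socs3 in MRL/lpr and 0.588% in MRL/mpj, whereas 3.47% exceeded Pim1 in MRL/lpr and 13.7% in MRL/mpj. Socs1 and Socs2 lay below the median of all genes tested, which was 2.2 FPKM in MRL/lpr and 2.41 FPKM in MRL/mpj. Fewer cells of a type and less RNA per cell cannot be told apart in these bulk values.

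**Figure D3:**
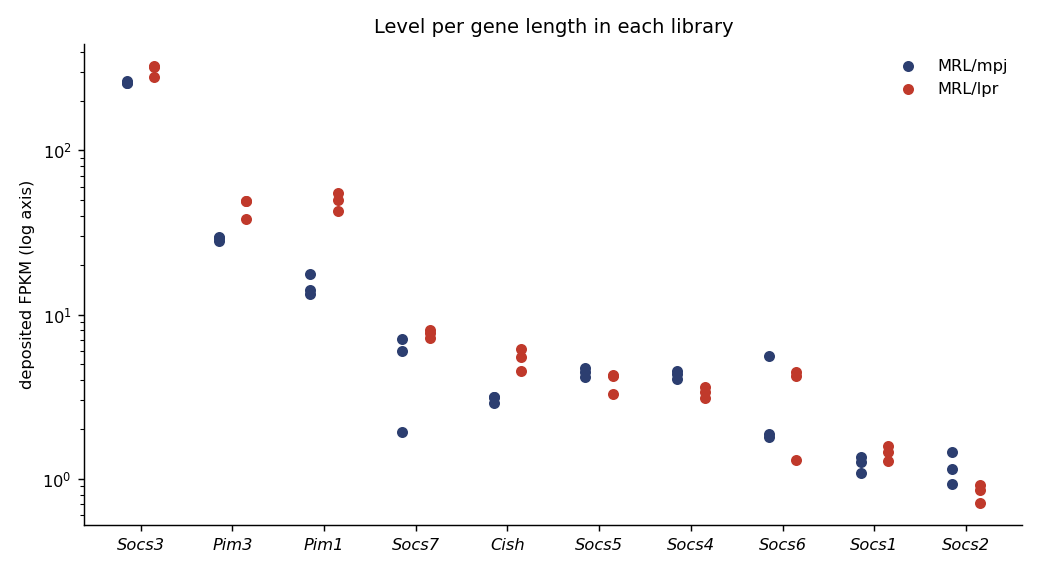
Deposited FPKM of the 10 genes in each library on a log axis, ordered by overall level, with MRL/mpj in blue and MRL/lpr in red. Socs3 lies between 256 and 327 FPKM in all 6 libraries. Pim1 ranks below Pim3 in MRL/mpj and overlaps it between MRL/lpr libraries, although it lies above Pim3 within each of them.

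The pathway that feeds these genes was described from fixed lists. Outside the 10 genes, 75 of 85 listed JAK-STAT genes (kinases, STATs, receptors, ligands and inhibitors) were tested, of which 23 (30.7%) were higher and 6 (8%) lower in MRL/lpr, against 11.1% and 9.06% of all genes. Of 4 Janus kinases, 3 were higher. Jak3, which pairs with the common gamma chain, had 9157, 9792 and 9001 counts in MRL/lpr and 5215, 4909 and 5127 in MRL/mpj (log2FC 1.05, SE 0.07, adjusted p = 6.87e-06 from edgeR). Jak1, the partner of gp130 and interferon receptors, had a log2FC of 0.53 (adjusted p = 0.000234) and Tyk2 0.28 (adjusted p = 0.0144), whereas Jak2 did not pass (log2FC 0.09, adjusted p = 0.586, all from edgeR). The Tyk2 call was lost with scaling by library size alone (adjusted p = 0.129) and without MRL/mpj replicate 1 (0.0540) or replicate 2 (0.0782).

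Stat2, which carries type I interferon signals, had 5284, 5109 and 3954 counts in MRL/lpr and 2361, 1906 and 2731 in MRL/mpj (log2FC 1.21, SE 0.12, adjusted p = 0.000126 from edgeR), with groups that did not overlap. Stat3, the main inducer of Socs3, had a log2FC of 0.30 (SE 0.06, adjusted p = 0.00594) and Stat6 of 0.24 (adjusted p = 0.0378). Both calls were lost with scaling by library size alone (adjusted p = 0.0787 and 0.296), and that of Stat6 was also lost without each library in turn other than MRL/lpr replicate 3. Stat5a and Stat5b, which drive Cish, did not pass (log2FC 0.31 and 0.09, adjusted p = 0.0939 and 0.553 from edgeR).

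Among receptors and ligands of the gp130 family, 5 of 12 genes were higher and 1 was lower. Il6, whose product signals through gp130 and STAT3, had 816, 942 and 506 counts in MRL/lpr and 149, 178 and 190 in MRL/mpj (log2FC 2.29, SE 0.21, adjusted p = 6.9e-05 from edgeR). The ligands Clcf1, Lif and Osm had log2FCs of 0.99, 0.99 and 0.77. Il6st, which encodes gp130 itself, the receptor chain that SOCS3 binds, had 9277, 9513 and 9025 counts in MRL/lpr and 27191, 16619 and 30073 in MRL/mpj (log2FC -1.23, SE 0.20, adjusted p = 0.00801 from edgeR). All MRL/lpr libraries were below all MRL/mpj libraries. The call was lost when MRL/lpr replicate 3 was left out (adjusted p = 0.0757). The receptor gene Lifr, the remaining called gene, was higher (log2FC 0.70, adjusted p = 8.31e-05 from edgeR), and was named after its value was seen.

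Of 8 interferon receptor and ligand genes, 0 were higher and 2 were lower: Ifngr1, a chain of the interferon gamma receptor (log2FC -0.76, adjusted p = 5.22e-05), and Ifnb1, the gene of interferon beta (-0.63, adjusted p = 0.0336, both from edgeR). The Ifnb1 call was lost without each library other than MRL/lpr replicate 2. In 2 of the 8 genes every MRL/lpr library lay above every MRL/mpj library in CPM and in 2 below, compared with 19.6% and 19.4% of all genes. The 2 above, Ifng and Ifnlr1, had low counts, at most 71 and 23 per library. They were not called (log2FC 1.52 and 2.98, adjusted p = 0.159 and 0.155 from edgeR), and were named after their values were seen. Of 21 other JAK-coupled receptors, 8 were higher and 3 lower. The largest increases were in Il3ra (2.45), Il2rb (2.05), Crlf2 (1.68) and Csf2ra (0.97), the receptor chains for IL-3, IL-2 and IL-15, TSLP and GM-CSF. Il2rb is also expressed by T and NK cells. Prlr (-2.24), Il21r (-0.55) and Il7r (-0.41) were lower, and Prlr is also a choroid plexus gene. Il10 was the 1 gene called of 9 other cytokine ligands (log2FC 1.54, adjusted p = 0.0113 from edgeR), and it missed the threshold without MRL/lpr replicate 1 (0.0506).

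Of 14 other brakes on the pathway, 2 were higher and 0 lower. Usp18, an interferon-induced inhibitor of the interferon receptor, had 1216, 1270 and 1351 counts in MRL/lpr and 218, 222 and 222 in MRL/mpj (log2FC 2.72, SE 0.13, adjusted p = 1.48e-06 from edgeR). Of 8 partners of the SOCS box, the domain through which SOCS proteins recruit a ubiquitin ligase, 0 were higher and 1 was lower, Rnf7, the RING subunit of cullin 5 ligases (log2FC -1.17, SE 0.09, adjusted p = 2.24e-05 from edgeR). The adaptors Elob and Eloc and the scaffold Cul5 did not pass (log2FC 0.55, -0.09 and 0.04, adjusted p = 0.135, 0.558 and 0.830 from edgeR). Of 12 substrates and targets of SOCS proteins outside the receptors, 3 were higher and 1 lower, with a median log2FC of 0.16.

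**Figure D4:**
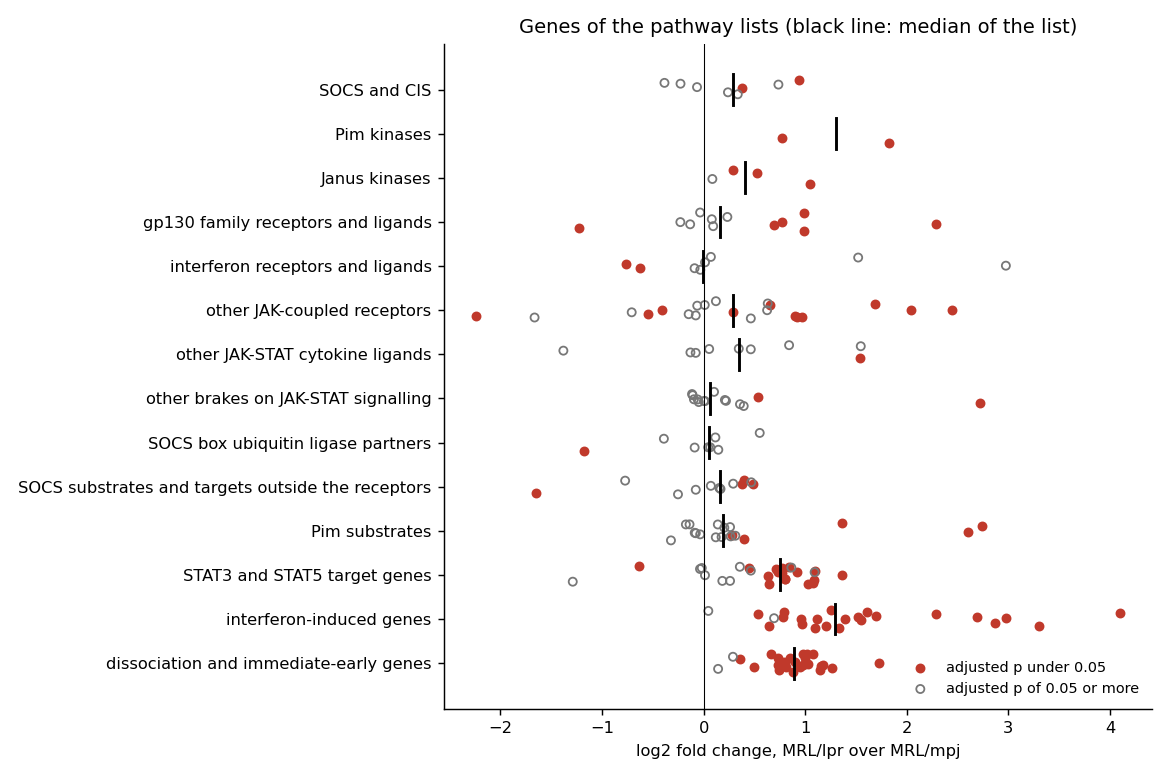
Log2 fold change (MRL/lpr over MRL/mpj) of the tested genes of each list, 1 point per gene, filled red where the adjusted p from edgeR is under 0.05, with the median of each list as a black line. The medians are 0.41 for Janus kinases, 0.75 for STAT3 and STAT5 targets, 1.29 for interferon-induced genes and 0.89 for dissociation and immediate-early genes.

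Of 18 genes whose products are Pim kinase substrates, 5 were higher and 0 lower, and the median log2FC was 0.19. Cdkn1a, which encodes p21 and lies 390 kb from Pim1 on chromosome 17, had 19600, 17192 and 15536 counts in MRL/lpr and 7646, 7266 and 8057 in MRL/mpj (log2FC 1.36, SE 0.07, adjusted p = 2.37e-06 from edgeR). Cdc25c, a mitotic phosphatase, and Runx3, a lymphoid transcription factor, had log2FCs of 2.74 and 2.60 from low counts of at most 185 per library. Within 500 kb of Pim1, 4 of 23 other tested genes were called, all of them higher, and Gm26885 and Cdkn1a were among them. Of all genes tested, 20.2% were called in either direction, and the median log2FC of the 23 neighbours was 0.07.

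Of 28 genes listed as STAT3 and STAT5 targets, 17 were higher and 1 was lower, with a median log2FC of 0.75. Cdkn1a, Bcl3, Cebpb and Junb led the increases (1.36, 1.09, 1.08 and 1.08), and Vegfa was lower (-0.64). None of these 28 genes had a larger log2FC than Pim1, while 6 exceeded Cish, 11 exceeded Pim3 and 20 exceeded Socs3. Of 24 interferon-induced genes, 22 were higher and 0 lower, with a median of 1.29 and the largest values in Zbp1 (4.10), Ifit3 (3.30), Gbp3 (2.98) and Irf7 (2.86). Socs1, a member that is also interferon-induced, had a log2FC of 0.34 and was not called in the same libraries.

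Immediate-early and dissociation genes, which respond within minutes to tissue handling as well as to signals in the animal, moved with the 4 called members. Of 26 such genes, 24 were higher and 0 lower, and their summed level was 67245 to 76221 CPM in MRL/lpr and 38918 to 41113 CPM in MRL/mpj. Nfkbiz, Dnajb1, Ier2 and Btg2 had log2FCs of 1.73, 1.26, 1.17 and 1.15. The increase of Pim1 was larger than that of all 26 genes, whereas 12 exceeded Cish, 18 exceeded Pim3 and 23 exceeded Socs3. The part of these genes' difference in the result for the members was not tested. Of the STAT3 and STAT5 targets outside this list, 14 of 25 were higher and 1 was lower.

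Markers of some other blood cells were also higher in MRL/lpr. Of 17 T cell markers tested, 14 were higher and 0 lower, and their summed level was 52.2 to 61.4 CPM in MRL/lpr and 16.8 to 20.6 CPM in MRL/mpj, with no listed marker at 0 in all libraries. Cd3e, a defining chain of the T cell receptor complex, had 103, 92 and 120 counts in MRL/lpr and 2, 0 and 9 in MRL/mpj. Of 8 NK cell markers tested, 5 were higher (18.7 to 22.8 CPM against 9.80 to 10.4 CPM), and Klra8 was at 0. Of 6 B cell markers tested, 0 were higher or lower (8.86 to 10.9 CPM against 8.96 to 9.92 CPM), and Cr2 was at 0. Plasma cell markers were higher in 3 of 9, which included the light chain gene Igkc (2828, 2803 and 2837 counts in MRL/lpr, 103, 73 and 85 in MRL/mpj). Among the other CD11b-positive cells, neutrophil markers were higher in 4 of 12 and lower in 0, with sums of 1515 to 1694 CPM in MRL/lpr and 1473 to 1508 CPM in MRL/mpj. In 8 of the 12 every MRL/lpr library lay above every MRL/mpj library, and in 1, Csf3r, below. Among all genes these shares were 19.6% and 19.4%. Csf3r was also the largest part of the sums (783 against 867 CPM, not called). Monocyte markers were higher in 5 of 10 and lower in 1, with sums of 592 to 679 CPM and 575 to 600 CPM. Most of the monocyte sum was Fn1 (531 against 497 CPM, not called), while Plac8 was 4.66-fold and Ms4a4c 8.27-fold higher. Chil3, the 1 lower marker, was at 16.1 CPM in MRL/lpr and 48.5 CPM in MRL/mpj. Ccr2 was not called, with all MRL/lpr libraries below all MRL/mpj libraries (7.10 against 8.50 CPM). Border macrophage markers were higher in 2 of 10 and lower in 3, with sums of 482 to 527 CPM in MRL/lpr and 787 to 810 CPM in MRL/mpj. Stab1, 1 of the lower markers, was the largest part of these sums (427 against 734 CPM), while Siglec1 was 8.80-fold higher. Igkc, Csf3r, Fn1, Plac8, Ms4a4c, Chil3, Ccr2, Stab1, Siglec1 and Cd3e were named after their values were seen. Ependymal and choroid plexus markers were lower in 8 of 12 and summed to 599 to 604 CPM against 1955 to 2113 CPM. The part of these cells in the results for the members was not tested.

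**Figure D5:**
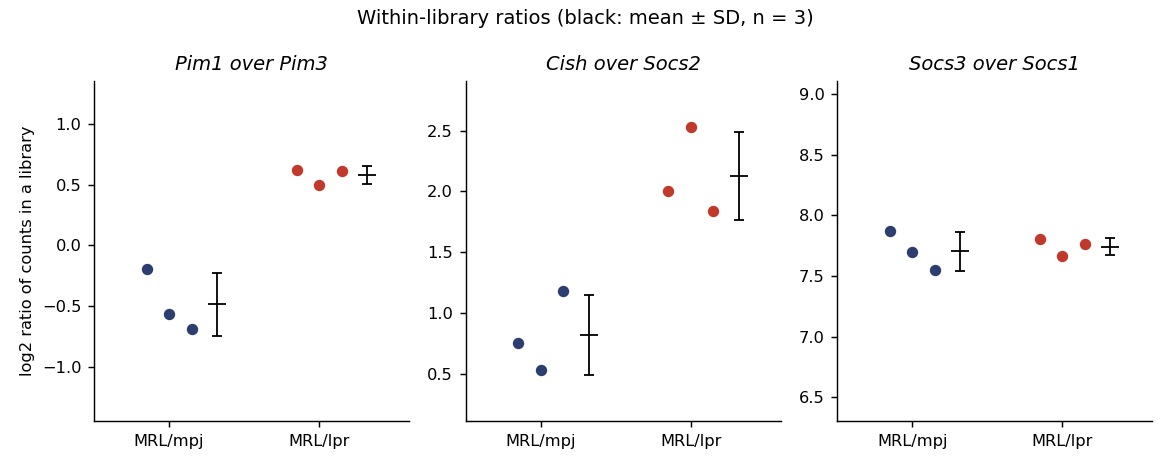
Log2 ratio of the counts of gene pairs within each library, with 3 MRL/mpj libraries in blue, 3 MRL/lpr libraries in red and the mean and SD in black. Pim1 over Pim3 and Cish over Socs2 are higher in every MRL/lpr library, while Socs3 over Socs1 overlaps between strains.

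The gene with the pattern most like each member was sought among all genes tested that had a symbol. It was the gene with the smallest root mean square (RMS) difference of log2 CPM deviations over the 6 libraries. For Pim1 it was Fam83d (RMS 0.0875, log2FC 1.89), for Cish it was Odc1 (0.0382, 0.98), for Pim3 it was Lbr (0.0326, 0.78) and for Socs3 it was Acsl4 (0.0235, 0.37). Socs1 was most like Fbxo30 (0.0325, 0.37), Socs4 most like Coq2 (0.0218) and Socs5 most like Zfp280d (0.0168). The widely scattered Socs7 had no close match, its nearest gene being Olfr920 at an RMS difference of 0.157, and Socs2 and Socs6 were nearest to Fitm2 (0.0716) and Gm5446 (0.0639).

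Genes next to the members were examined over 500 kb on each side, against 20.2% of all genes called in either direction. Around Cish, 0 of 31 tested neighbours were called, so Cish rose without a called change in its surroundings. Around Socs3, 8 of 21 neighbours were called, all of them higher. Among them were 6030468B19Rik (log2FC 12.1), Birc5 (2.07), Lgals3bp (1.42) and Syngr2 (1.37), which were named after their values were seen. The median log2FC of the 21 neighbours was 0.41, and that of Socs3 itself was 0.38. Whether these differences are linked was not tested. Around Pim3 4 of 21 and around Socs1 4 of 20 were called. Wdhd1, a replication factor gene whose start lies 0.1 kb from that of Socs4, was higher (log2FC 0.77, adjusted p = 0.0330 from edgeR) while Socs4 was not called. Around Socs2 0 of 10 and around Socs6 0 of 2 neighbours were called.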

How the data were processed

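RNA-seq data of 3 MRL/lpr and 3 MRL/mpj libraries were used, grouped by the genotype in the labels. The authors deposited a matrix of raw gene counts (whole numbers, not normalized) and, for each library, a table of FPKM values. According to the submitters' processing notes, cutadapt 1.9.3, HISAT2 2.0.4, Cufflinks and Cuffdiff 2.2.1 and the build GRCm38 were used. The tool that made the counts is not given in the sources used here. The labels describe ribosomal RNA depletion with a stranded kit, whereas the methods describe purified mRNA. In MRL/lpr replicate 1, 1234 genes had 4 counts, but 377 had 3 and 254 had 5, so an alternative divided the counts by 4. Gene symbols and positions were taken from GENCODE M21 (GRCm38) for 55141 of 55401 identifiers, and promoter sequences from RefSeq on GRCm38.p6.

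Counts were filtered with filterByExpr (minimum count 10, minimum total 15), scaled by TMM and compared between strains with edgeR 4.0.16 in R 4.3.3 (robust quasi-likelihood test, no covariates), with Benjamini-Hochberg adjustment over all 19554 genes tested. The common biological coefficient of variation was 0.26. Between replicates of a strain the median ratio over genes of the squared difference to the sampling noise of the counts was 4.13 to 10.7. That noise takes each count as 1 read, and the ratios would be smaller if reads were counted more than once. No libraries were merged as repeats of the same library. Within-library ratios were compared by an exact two-sided permutation test, which cannot give a p under 0.1 with 3 libraries per strain. The test was tried on simulated counts first. The members and lists were chosen with earlier results of these data known. Genes are named by rule: all members, up to 4 higher and 4 lower called genes per list by size of change, direct partners of the members, and the most similar gene of each member. Alternatives were DESeq2 1.42.0, limma 3.58.1 on log2 FPKM with a pseudocount of 0.1 or 1, other scalings, filters and dispersions, blocking by replicate number, and fits without single libraries. The list of STAT genes as a whole is not reported here.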

Additional observations from a re-analysis of the deposited data

How the results depend on the processing

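Across 17 alternatives, Cish, Pim1 and Pim3 were called higher in 17, with log2FCs of 0.65 to 1.03, 1.65 to 1.95 and 0.63 to 0.87, and Socs3 in 15 (0.25 to 0.43). The count of higher members was 4 in each alternative other than the fits with limma on log2(FPKM + 0.1) and log2(FPKM + 1), which gave 3, with adjusted p = 0.0685 and 0.0715 for Socs3. The count of lower members was 0 in the main analysis and 1 with scaling by library size alone, which added Socs4. That scaling moved the median log2FC of all genes from -0.01 to -0.13 and the calls from 2178 higher and 1772 lower to 1634 higher and 2790 lower. Limma on log2(FPKM + 1) called 617 genes with the fold limit against 1630 in the main analysis. With each library left out in turn, the log2FC of Socs5 ran from -0.12 to 0.028, turning positive without MRL/lpr replicate 3. That of Socs6 ran from -0.03 to 0.98, with values of -0.0044, -0.03 and -0.02 without MRL/lpr replicate 3, MRL/mpj replicate 1 and MRL/mpj replicate 3. None of these values was called, and the cause was not tested. Same-numbered libraries did not deviate together across all genes tested (r = -0.041, -0.020 and -0.033). This measure cannot show a pairing that touches only a few genes, so pairing by number is not settled. With a replicate block, the same 4 members were called and 3063 genes in all, against 3950 without it. The wide intervals of Socs6 and Socs7 limit what 3 libraries per strain can show for these genes.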
